A study of Mus musculus with 12 samples.

Results

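The class II odorant receptor (OR) genes of chromosome 11 were read by 81 of the 35556 probe sets (transcript clusters) of the mouse arrays. They were chosen by annotation alone, as the probe sets of OR genes with class II and chromosome 11 in the study's annotation, without a pseudogene as their first symbol. Of 96 class II probe sets on this chromosome, 15 had a pseudogene as the first symbol and were set aside, and no measured value entered the choice. ORs are G protein-coupled receptors of olfactory sensory neurons (OSNs), and each OSN as a rule expresses 1 OR gene from 1 allele. Class I genes, which resemble the receptors of fish, lie in a single cluster on chromosome 7, whereas the far more numerous class II genes lie in many clusters on other chromosomes and elsewhere on chromosome 7. Enhancers near the clusters act together with the LIM homeodomain factor Lhx2, its cofactor Ldb1 and Ebf factors in the choice of class II genes.

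Total RNA of the main olfactory epithelium (MOE), the OSN-bearing tissue of the nose, was hybridised to 12 arrays (Affymetrix Mouse Gene 1.0 ST), 1 for each of 6 ΔJ and 6 wild-type animals. The ΔJ mice were homozygous for a CRISPR-Cas9 deletion of the J element, a conserved regulatory sequence beside the class I cluster on chromosome 7, and came from 1 line founded by a single animal, so that the deletion and anything linked to it are represented once. The eggs were of the B6C3F1 hybrid and the line had been crossed to C57BL/6 mice for few generations, and the labels give C57BL/6 as the strain of both genotypes. No transgene or drug was used in either group. Of the ΔJ mice 3 were male and 3 female, and of the wild-type mice 2 were male and 4 female. One ΔJ mouse and 2 wild-type mice were taken at P33 and all others at P30. Values are log2 signals from which the 75th percentile of each array was subtracted, so a level of 0 is that percentile. In the whole tissue, fewer OSNs that express a receptor and less mRNA per OSN cannot be told apart.

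The tissue was checked with gene lists. The mean over 15 probe sets of 12 mature OSN markers was 2.10 to 2.20 in wild-type mice and 1.96 to 2.17 in ΔJ mice, and no gene was called by genotype in the lists for mature and immature OSNs, sustentacular cells, basal and progenitor cells, immune cells, respiratory epithelium and vomeronasal neurons. Over all 35556 probe sets, 0.135% differed between genotypes after adjustment (adjusted p under 0.05, limma) and 3.33% before it. The arrays fell into 2 sets, replicates 1 to 3 with a standard deviation of 2.07 to 2.13 over all probe sets and replicates 4 to 6 with 2.21 to 2.23, and no source used here says what the arrays of a set have in common. A single ΔJ mouse, replicate 5 (female, P30, second set), stood apart in the receptors described here, and the main results are also given without it.

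The 81 probe sets lay in 7 loci on chromosome 11, counted as runs of OR probe sets with gaps under 0.5 Mb. The locus near 73 Mb was the largest, with 29 members and 10 pseudogenes over 1012 kb from *Olfr20* to *Olfr412*. The loci near 58 Mb (*Olfr30* to *Olfr311*) and 49 Mb (*Olfr56* to *Olfr1380*) held 20 and 19 members over 387.1 and 514.1 kb. The 4 small loci held 5 members near 50 Mb (*Olfr1378* to *Olfr1375*), 2 near 52 Mb (*Olfr1373* and *Olfr1371*), 3 near 59 Mb (*Olfr222* to *Olfr225*) and 3 near 87 Mb (*Olfr462* to *Olfr464*). Each position overlapped an OR gene in RefSeq's annotation of mm10 (GRCm38.p6). Only OR genes were looked up at the positions. In 6 members the first symbol was not an OR gene found there, and these are named by the OR gene at the position. For *Olfr56* that first symbol is *Ifi47*, which is not an OR gene.

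Probes that match several genes limit what some members can show. A single symbol was attached to 67 probe sets and several to 14. *Olfr1380*, *Olfr1381*, *Olfr1373* and *Olfr1371* carried the same 6 symbols, and *Olfr1385* and *Olfr1386* the same 5, so the signals of these receptors cannot be assigned to 1 gene. The probe set of *Olfr56* also reads *Ifi47*, an interferon-inducible GTPase, and spans 49050733 to 49135387, an interval that includes *Olfr1396*. The probe set named *Olfr1375* carried the symbols *Olfr54* and *Olfr1375-ps1*. The latter is a pseudogene symbol, and the probe set was kept because *Olfr54* came first.

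Sequences before the start of the gene are shown first for the 6 members of the 73 Mb locus whose RefSeq start lies at least 1 kb before the array's probe set, since such starts belong to an upstream exon rather than to the coding exon that the array reads. Of the 81 members, 70 had a RefSeq promoter window, and in 61 of these the annotated start lay less than 1 kb before the probe set, so that the window is close to the coding exon and is not shown. The remaining 9 members had 10 windows. Each line gives the 150 bases before the start, 5′ to 3′ on the strand of the gene (GRCm38.p6), with homeodomain motifs in capitals.
Olfr20, chr11:73350709-73350858, plus strand: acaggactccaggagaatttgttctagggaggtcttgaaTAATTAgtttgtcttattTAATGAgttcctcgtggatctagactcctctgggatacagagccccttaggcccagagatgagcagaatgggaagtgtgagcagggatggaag
Olfr1, chr11:73399496-73399645, minus strand: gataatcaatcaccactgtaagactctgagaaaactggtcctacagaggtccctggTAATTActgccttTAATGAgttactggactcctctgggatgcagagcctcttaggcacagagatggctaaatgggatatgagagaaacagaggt
Olfr378, chr11:73428478-73428627, minus strand: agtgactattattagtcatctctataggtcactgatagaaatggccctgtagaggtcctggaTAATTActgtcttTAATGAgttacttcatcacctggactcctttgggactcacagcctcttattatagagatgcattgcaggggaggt
Olfr389, chr11:73780590-73780739, minus strand: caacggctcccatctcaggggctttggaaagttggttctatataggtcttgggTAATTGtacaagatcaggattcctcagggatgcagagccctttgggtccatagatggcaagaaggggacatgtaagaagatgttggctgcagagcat
Olfr392, chr11:73816878-73817027, minus strand: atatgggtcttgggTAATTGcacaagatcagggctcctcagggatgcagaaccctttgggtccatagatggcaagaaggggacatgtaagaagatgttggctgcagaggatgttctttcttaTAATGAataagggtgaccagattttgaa
Olfr59, chr11:74283586-74283735, plus strand: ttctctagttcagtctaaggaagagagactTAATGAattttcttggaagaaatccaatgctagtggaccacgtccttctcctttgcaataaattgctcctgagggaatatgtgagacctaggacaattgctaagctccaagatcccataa

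The letters TAATTA, the letters TAATTG, the letters TAATGA and the letters TAATGG were searched on both strands. They are core sequences that LIM homeodomain factors can bind, the first reads the same on both strands, and matches can overlap one another. In the windows of *Olfr1* and *Olfr378* a TAATTA was followed by a TAATGA 13 bases downstream, and in the window of *Olfr20* by a TAATGA 18 bases downstream. The windows of *Olfr389* and *Olfr392* shared an identical run of 57 bases, and those of *Olfr1* and *Olfr378* one of 15 bases. Of the 10 windows, 8 held at least 1 such motif, and the 2 without were those of *Olfr330* and of a second start of *Olfr59*, whose windows overlap by 92 bases. A motif was present in 24 of 46 such windows (52.2%) of class II genes on other chromosomes and in 13.6% of all 32851 RefSeq windows of this length, and the difference between these shares was not tested. The letters TCCCNNGGGA, a strict core of the sites of Ebf factors, were in 0 of the 10 windows. They were in 0 of the 46 windows of class II genes on other chromosomes and in 0.447% of all windows. At so low a rate their absence from 10 windows cannot show a lack of such sites. The study's looser O/E-like site, YYYCARRRR (Y for C or T, R for A or G), was not searched. The windows of *Olfr389* and *Olfr392* hold it as CCTCAGGGA.

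The ΔJ mice were compared with wild-type mice to ask whether loss of the J element touches receptor mRNA outside the class I cluster. None of the 81 class II receptors of chromosome 11 was called by genotype, which required an adjusted p under 0.05 and a change of more than 1.3-fold (limma, Benjamini-Hochberg adjustment over 1213 OR probe sets). By the same rule 6.18% of all OR probe sets were called lower in ΔJ mice and 0.0824% higher. The called probe sets included 73 lower and 1 higher of the 130 class I receptors, whereas among the 910 class II receptors on other chromosomes none was called, and 1 was with the replicate number as a block. In that fit the count on chromosome 11 stayed at 0. No member of chromosome 11 had an unadjusted p under 0.05 (8.33% of all OR probe sets had), and the smallest adjusted p was 0.79, that of *Olfr384*. The measured signal in ΔJ mice, background included, ranged from 75.4% of the wild-type signal for *Olfr394* to 118% for *Olfr56*, with a median over the 81 members of 94.8%. The ΔJ and wild-type mice overlapped in all 81 members, and failed to overlap in 65 of the 1213 OR probe sets (5.36%).

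**Figure D1:**
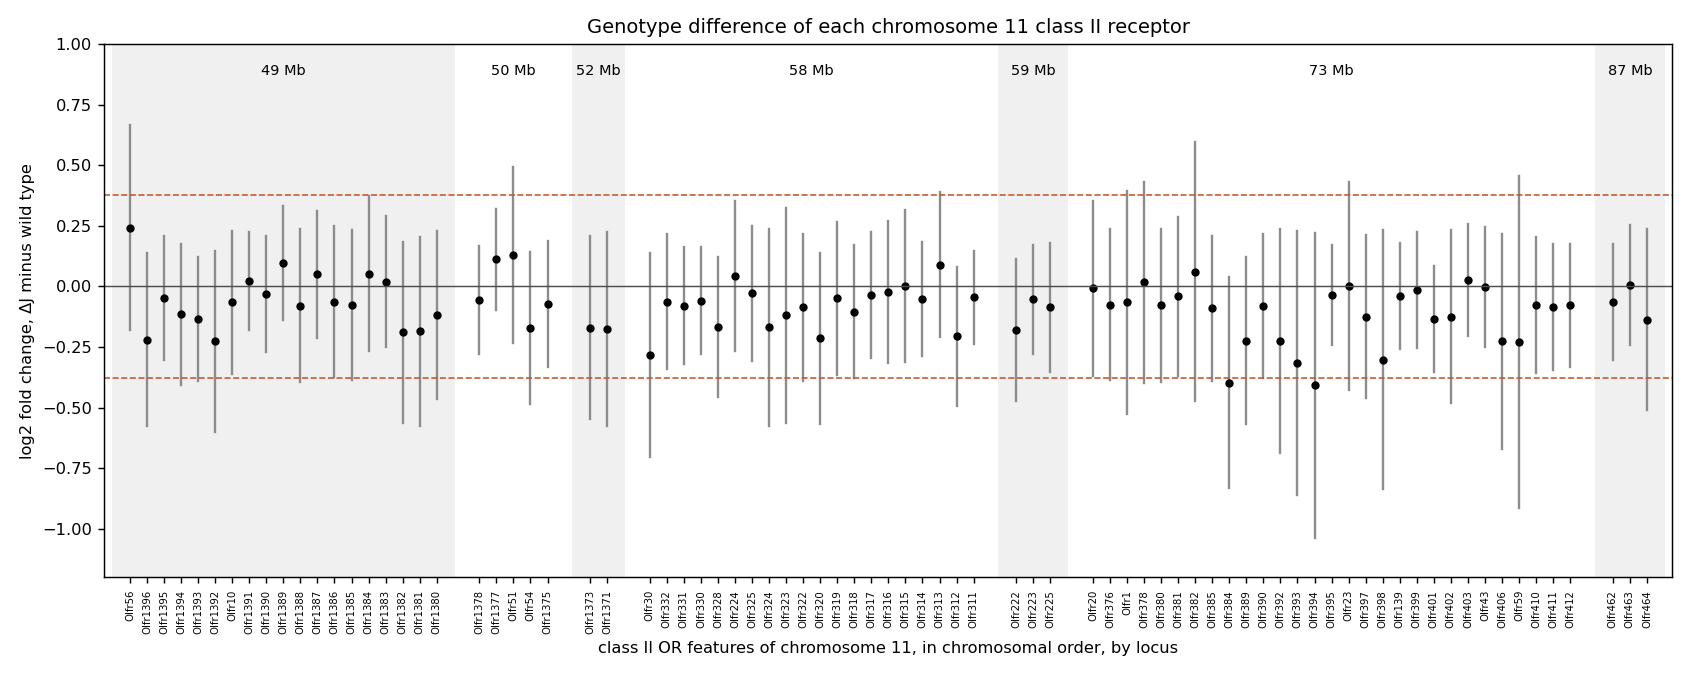
Log2 fold change (ΔJ minus wild type, 6 mice each) of the 81 class II receptors of chromosome 11 on the vertical axis, in chromosomal order on the horizontal axis and grouped by locus, with points for the limma estimate, vertical lines for its 95% confidence interval and dashed lines at a fold change of 1.3. Every interval includes 0, the points run from -0.41 for *Olfr394* to 0.24 for *Olfr56*, and 40 of the 81 intervals lie inside the dashed lines.

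A p that misses the threshold does not show an unaltered level, so the confidence intervals were set against the fold change of 1.3. Both ends of the 95% interval lay within 1.3-fold for 40 of the 81 members (49.4%), and for 41.3% of the class II receptors on other chromosomes. In 33 members the interval reached a decrease of 1.3-fold or more but no such increase, in 3 the reverse, and in 5 it reached both. The half-width of the interval was 0.19 to 0.68 on the log2 scale, and the lowest bound over all members was 0.49-fold and the highest 1.59-fold. With the array set as a block, the interval of 56 members (69.1%) lay within 1.3-fold, and that of 72.2% of the other class II receptors. With the replicate number as a block these were 57 members and 74% of the others.

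The members leaned to lower values in ΔJ mice without any of them passing the test. The log2 fold change was below 0 in 65 of 81 members (80.2%) and above 0 in 16, with a median of -0.08. Another scaling of the arrays left fewer below 0, 55 with median centring and 54 with quantile normalization. Among all probe sets of the array 60.2% were below 0, with a median of -0.03, and among class II receptors on other chromosomes 58.8% were, also with a median of -0.03. Class I receptors had a median of -0.52. By chromosome, the class II median of chromosome 11 was close to those of chromosome 1 (-0.08, 26 receptors) and chromosome 7 (-0.08, 114 receptors), and those of chromosomes 9 (0.01, 133 receptors), 14 (0.01, 39 receptors) and 16 (0.01, 37 receptors) lay above 0. Without ΔJ replicate 5 the medians of chromosomes 11, 1 and 7 were -0.01, 0.00 and 0.01, and those of chromosomes 9, 14 and 16 were 0.06, 0.09 and 0.09. The median was below 0 in all 7 loci of chromosome 11, at -0.07 near 49 Mb, -0.06 near 50, -0.17 near 52, -0.06 near 58, -0.09 near 59, -0.08 near 73 and -0.06 near 87 Mb. Without ΔJ replicate 5 the medians were 0.01, -0.02, -0.01, -0.01, -0.03, -0.02 and 0.02 in the same order, so that those near 49 and 87 Mb lay above 0. These counts describe receptors measured in the same 12 mice, and the difference from other chromosomes was not tested.

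The lean below 0 rested largely on a single mouse. The mean level over the 81 members was -1.31, -1.23 and -0.95 (lowest, median and highest) in wild-type mice, and -1.71, -1.18 and -1.06 in ΔJ mice. The lowest ΔJ value was that of replicate 5, the next lowest was -1.41 in replicate 4, and the ΔJ median lay above the wild-type median. ΔJ replicate 5 was the lowest of all 12 mice in 55 of the 81 members (67.9%), and in 46.6% of the class II receptors on other chromosomes. The same mouse had the lowest mean of the mature OSN markers, 1.96, and of the immature OSN markers, 1.34 against 1.41 to 1.59 in the other mice, and the part of these in the receptor values was not tested. Without it, the log2 fold change of 45 of 81 members (55.6%) was below 0 with a median of -0.01, the interval of 58 members lay within 1.3-fold, and again none was called and none had an unadjusted p under 0.05. In the other class II receptors 34.8% were then below 0, with a median of 0.04. The median of the members thus lay below theirs with and without this mouse. The mean of the members minus that of the other class II receptors was 0.64, 0.72 and 0.79 in wild-type mice. In ΔJ mice it was 0.56, 0.66 and 0.72 (lowest, median and highest). This difference was not tested. Wild-type replicate 3, a male of the first set, was the highest of the 12 mice in 42 of the 81 members.

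**Figure D2:**
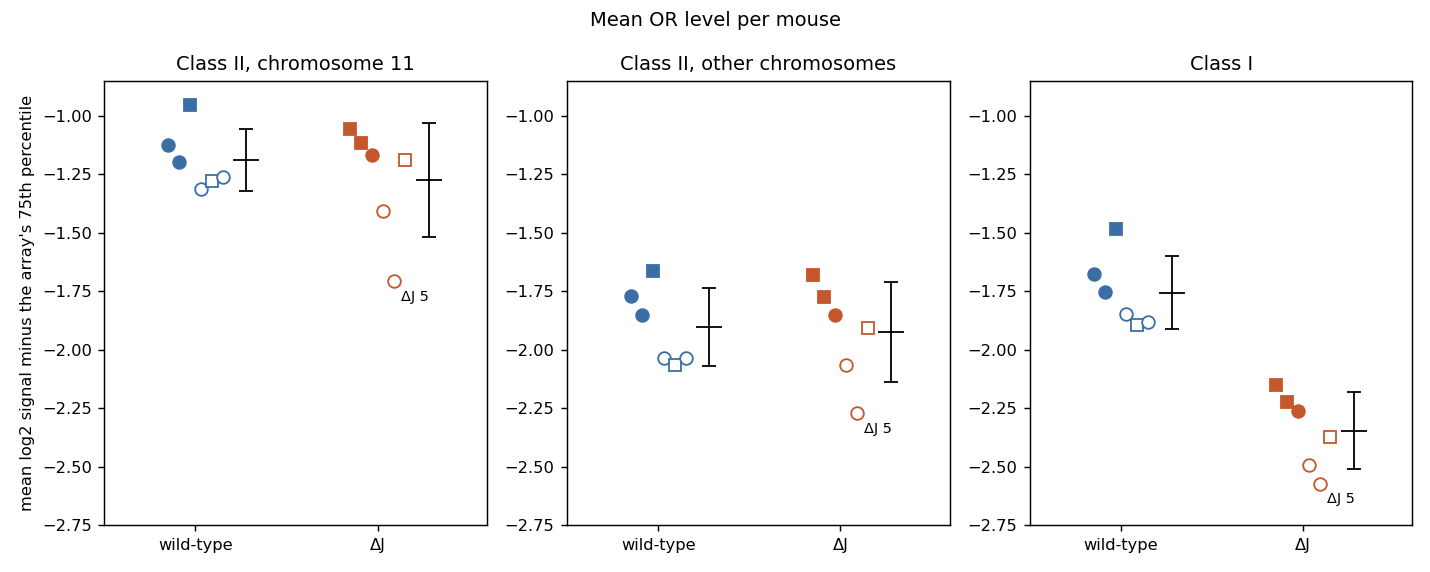
Mean log2 signal minus the 75th percentile of the array for each mouse, over class II receptors of chromosome 11, class II receptors of other chromosomes and class I receptors, with squares for males, circles for females, filled symbols for replicates 1 to 3, open symbols for replicates 4 to 6, and bars for mean ± SD of 6 mice. The genotypes overlap in both class II panels, where ΔJ replicate 5 is the lowest mouse, and do not overlap in the class I panel.

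**Figure D3:**
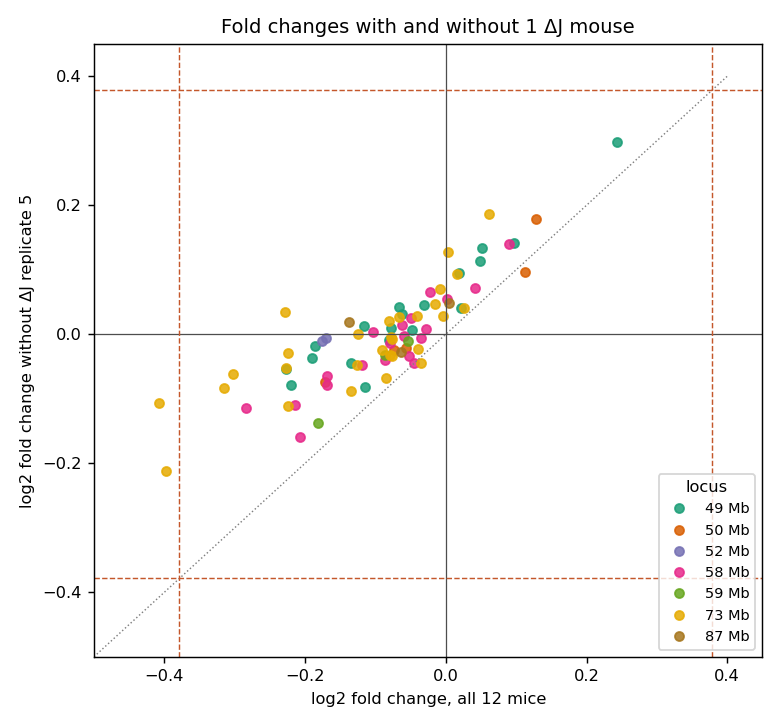
Log2 fold change (ΔJ minus wild type) of the 81 members with all 12 mice on the horizontal axis and without ΔJ replicate 5 on the vertical axis, coloured by locus, with dashed lines at a fold change of 1.3 and a dotted line of equal values. Without this mouse most of the points move up, 45 in place of 65 of 81 lie below 0, and none lies beyond 1.3-fold.

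The members whose estimate lay beyond 1.3-fold were *Olfr394* and *Olfr384*, both in the 73 Mb locus. *Olfr394* (73887438 to 73888370) was at -0.51, -0.23 and 0.17 in wild-type mice and at -2.13, -0.32 and 0.05 in ΔJ mice (lowest, median and highest). The lowest value was that of ΔJ replicate 5, the next ΔJ value was -1.01, and the other 4 ΔJ mice fell within the wild-type range. Its log2 fold change was -0.41 (95% interval -1.04 to 0.22, limma adjusted p = 0.995), and -0.11 without ΔJ replicate 5.

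*Olfr384* (73602582 to 73603520) was at -2.70, -2.51 and -2.07 in wild-type mice and at -3.77, -2.69 and -2.41 in ΔJ mice. Its genotypes overlapped as well, with ΔJ replicate 5 again the lowest. The log2 fold change was -0.40 (95% interval -0.83 to 0.04), and -0.21 without that mouse. It was lower in ΔJ mice within both array sets, by -0.27 in replicates 1 to 3 and -0.52 in replicates 4 to 6 (-0.18 without ΔJ replicate 5). In a fit blocked on the replicate number its unadjusted p was 0.017 and its adjusted p 0.20 (limma). It was the only member with an unadjusted p under 0.05 in that fit. So did 34 of the 910 class II receptors on other chromosomes, and 147 of all 1213 OR probe sets.

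Most of the other members with the smallest p or the largest change also moved towards 0 without ΔJ replicate 5. *Olfr393* and *Olfr398*, of the same locus, had log2 fold changes of -0.32 and -0.30, which became -0.08 and -0.06 without ΔJ replicate 5. *Olfr389* was at -0.72, -0.55 and -0.01 in wild-type mice and at -1.27, -0.67 and -0.32 in ΔJ mice. The groups overlapped, and its log2 fold change of -0.22 became -0.11. In the 58 Mb locus, *Olfr30* had a log2 fold change of -0.28 (-0.11 without the mouse) and *Olfr312*, in which ΔJ replicate 4 was the lowest mouse, one of -0.21 (-0.16 without replicate 5). *Olfr394*, *Olfr393*, *Olfr398* and *Olfr30* differed little between genotypes in the first array set, by -0.04, -0.07, -0.04 and -0.00, and by -0.78, -0.56, -0.57 and -0.57 in the second, which holds ΔJ replicate 5. Without that mouse the second set gave -0.29, -0.20, -0.15 and -0.20. The difference between the sets was not tested for these members.

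The highest log2 fold change was that of *Olfr56*, read together with *Ifi47*. Its values were -3.33, -2.94 and -2.78 in wild-type mice and -3.18, -3.00 and -1.84 in ΔJ mice, where ΔJ replicate 4 was the highest. The other 5 ΔJ mice lay between -3.18 and -2.60, and the log2 fold change of 0.24 (95% interval -0.18 to 0.67) became 0.05 without that mouse.

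Receptors known outside these data differed by less than their SD over ΔJ mice. *Olfr1393* differed by more than its SD over wild-type mice, 0.11. *Olfr54* serves as a class II probe for in situ hybridization in the study. It was at -1.23, -0.95 and -0.76 in wild-type mice and at -1.64, -1.19 and -0.64 in ΔJ mice. Both the lowest and the highest mouse were ΔJ, and the log2 fold change was -0.17 (95% interval -0.49 to 0.14), and -0.07 without ΔJ replicate 5. The probe set named *Olfr1375*, which also carries the symbol *Olfr54*, had -0.07 with all mice. *Olfr1393*, also known as a receptor of the kidney that acts in glucose handling, was at -0.60, -0.48 and -0.33 in wild-type mice and at -1.05, -0.51 and -0.35 in ΔJ mice. Apart from ΔJ replicate 5 at -1.05 and 1 mouse at -0.68, the ΔJ values fell within the wild-type range, and the log2 fold change was -0.13, and -0.04 without replicate 5. *Olfr43*, a receptor for citronellal-like odorants, was at -1.60, -1.47 and -1.15 in wild-type mice and at -1.69, -1.41 and -1.25 in ΔJ mice. The ranges nearly coincided, and the log2 fold change of -0.00 (95% interval -0.25 to 0.24) lay within 1.3-fold. The probe set named *Olfr403*, which has *Olfr43* as its first symbol, had 0.03. The probe sets of *Olfr1385* and *Olfr1386*, whose shared symbols include *Olfr1393* and *Olfr10*, had -0.08 and -0.06. *Olfr23*, *Olfr10* and *Olfr1* had log2 fold changes of 0.00, -0.07 and -0.07 (0.13, 0.04 and 0.03 without that mouse), and only the interval of *Olfr10* lay within 1.3-fold.

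**Figure D4:**
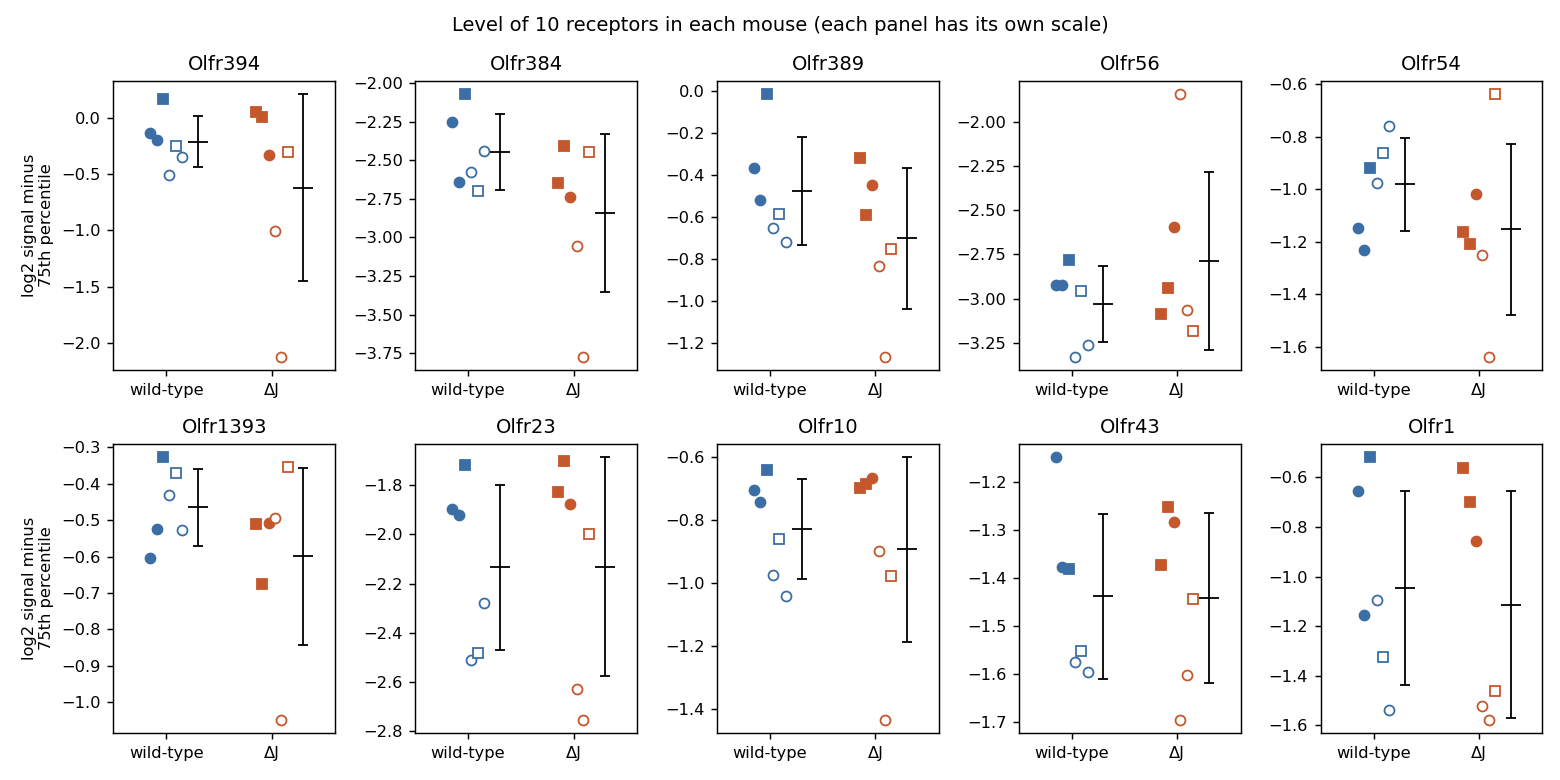
Log2 signal minus the 75th percentile of the array in each mouse for 10 receptors, each panel on its own vertical scale, with squares for males, circles for females, filled symbols for replicates 1 to 3, open symbols for replicates 4 to 6, and bars for mean ± SD of 6 mice per genotype. The genotypes overlap in all 10 panels, and the lowest ΔJ value of *Olfr394*, -2.13, is that of replicate 5.

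The receptors at the ends of the loci stand for positions along the chromosome and were chosen by place. *Olfr311*, the last of the 58 Mb locus, varied least of them, from -2.65 to -2.49 with a median of -2.57 in wild-type mice and from -2.68 to -2.45 with a median of -2.64 in ΔJ mice, and differed by -0.04 (95% interval -0.24 to 0.15). *Olfr222* and *Olfr225* bound the 59 Mb locus and had log2 fold changes of -0.18 and -0.09 (-0.14 and -0.03 without ΔJ replicate 5). *Olfr20* and *Olfr412* bound the 73 Mb locus and had -0.01 and -0.08 (0.07 and -0.03 without it). *Olfr462* and *Olfr464* of the 87 Mb locus had -0.06 and -0.14, and without that mouse -0.03 and 0.02, so that the sign of *Olfr464* turned. The probe sets that share 6 symbols moved together, from -0.12 for *Olfr1380* to -0.19 for *Olfr1381*, and lay between -0.02 and 0.01 without ΔJ replicate 5. *Olfr1378* and *Olfr1375* of the 50 Mb locus had -0.06 and -0.07, and both -0.02 without it. None of these intervals excluded 0.

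The receptors varied more between ΔJ mice than between wild-type mice, which again followed 1 mouse. The SD over 6 wild-type mice was 0.07 to 0.48 with a median of 0.19, and that over 6 ΔJ mice 0.07 to 0.83 with a median of 0.27. The ΔJ SD was the larger in 61 of 81 members, and in 38 without ΔJ replicate 5, with a median of 0.19. The widest spread among wild-type mice was that of *Olfr382*, from -4.74 to -3.41 with a median of -4.12. *Olfr59* followed, from -0.95 to 0.15, and *Olfr323*, from -3.68 to -2.46. As a rough gauge of background, the Y-linked *Kdm5d*, *Uty* and *Eif2s3y* had means of -3.72, -4.69 and -4.99 in the 7 females. A wild-type mean below that of *Kdm5d* was found in 2 of the 81 members, *Olfr382* (-4.08) among them, and 0 lay below that of *Uty* or *Eif2s3y*. These are levels of different probes and set no firm limit.

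Sex was compared because the labels give it and the choice of members did not use it. With genotype in the model, none of the 81 members differed between the 5 males and 7 females at an adjusted p under 0.05, and 0% of all OR probe sets did (limma). Without adjustment 16 of 81 members had p under 0.05, all higher in males, beside 11% of all OR probe sets, and the smallest adjusted p was 0.44. The difference was above 0 in 77 of 81 members (95.1%) with a median of 0.19, and in 91.2% of the class II receptors on other chromosomes with a median of 0.17. Without ΔJ replicate 5, a female, it was above 0 in 73 of 81 with a median of 0.12, and 9 members had an unadjusted p under 0.05 (share over all OR probe sets not counted). *Olfr1396*, among the members with the smallest p, was at 0.12 to 0.34 in males and -0.81 to 0.10 in females. Its log2 difference was 0.41 (unadjusted p = 0.0097, limma adjusted p = 0.44), and 0.30 without ΔJ replicate 5. *Olfr392* and *Olfr406* had the other smallest p, with differences of 0.55 and 0.52, and 0.38 and 0.37 without it.

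The effect of genotype did not differ between males and females at an adjusted p under 0.05 in any member, nor in any OR probe set (0%, limma interaction term). *Olfr398* had the smallest unadjusted p of the members, 0.024, with a log2 fold change higher in males by 1.01 (adjusted p = 0.97), and by 0.65 without ΔJ replicate 5. *Olfr56* was the other with p under 0.05, at 0.045, with an interaction term of -0.81 (-1.09 without that mouse), that is, a fold change lower in males. These 2 of 81 members stand beside 2.8% of all OR probe sets with an unadjusted p under 0.05. Each rests on 2 to 4 mice per sex and genotype, among them ΔJ replicates 4 and 5.

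The clearest difference among the members was that between the 2 sets of arrays, each of which holds 3 ΔJ and 3 wild-type mice. The 3 mice of P33 are all in the second set, so age and set are partly confounded. With genotype in the model, 40 of 81 members (49.4%) differed between replicates 4 to 6 and replicates 1 to 3 at an adjusted p under 0.05, beside 56.1% of all OR probe sets. Of these, 39 were lower in replicates 4 to 6 and 1 was higher, and the median difference over all 81 members was -0.28, beside -0.29 over the other class II receptors. The median of the members was -0.13 with no percentile shift, -0.19 with median centring and -0.20 with quantile normalization. Without ΔJ replicate 5, 42 members were called (share over all OR probe sets not counted) and the median was -0.22. By locus, 20 of 29 members were called near 73 Mb, 12 of 19 near 49 Mb, 5 of 20 near 58 Mb, 1 each near 50, 52 and 59 Mb, and 0 of 3 near 87 Mb. In 24 of the 81 members the 2 sets did not overlap, beside 27.5% of all OR probe sets. *Olfr59* differed most, at -0.35 to 0.22 in the first set and -2.01 to -0.50 in the second, a log2 difference of -0.99 (limma adjusted p = 0.00081) that was -0.81 without ΔJ replicate 5. *Olfr382*, *Olfr394* and *Olfr1* had differences of -0.85, -0.68 and -0.68, and -0.81, -0.43 and -0.65 without that mouse. *Olfr411*, named after its value was seen, was the only member called higher in the second set (0.24). The 6 receptors whose upstream sequences are printed were all called lower in the second set, from -0.99 for *Olfr59* to -0.43 for *Olfr389*. All 6 lie in the 73 Mb locus, where 20 of 29 members were called. *Olfr332*, *Olfr330* and *Olfr224* of the 58 Mb locus have such upstream windows too and were not called. Their differences were -0.19, -0.08 and 0.25 (limma adjusted p = 0.15, 0.44 and 0.093). A link between the upstream letters and the array sets was not tested. With no percentile shift the number of members called was 24.

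**Figure D5:**
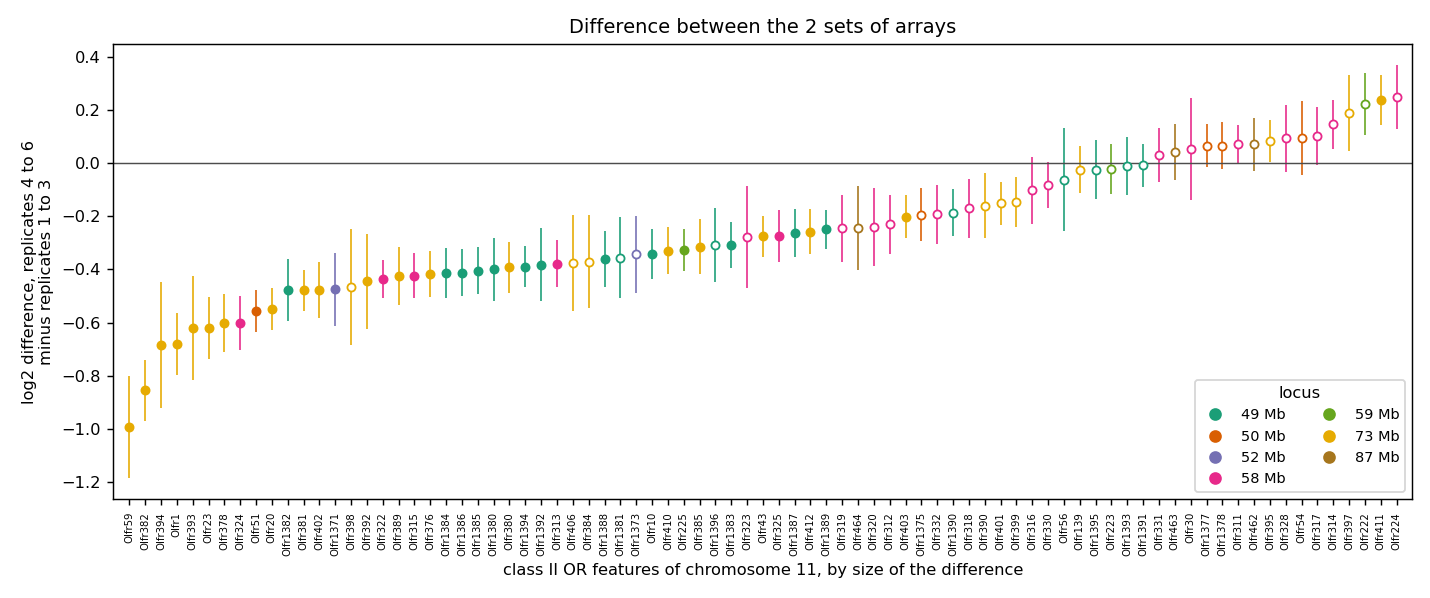
Log2 difference between replicates 4 to 6 and replicates 1 to 3 (6 mice each) of the 81 members, ordered by size and coloured by locus, with points for the limma estimate, bars for ± 1 standard error and filled points for an adjusted p under 0.05. The values run from -0.99 for *Olfr59* to 0.25 for *Olfr224*, and 40 points are filled, 39 of them below 0.

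Within the sets, the median log2 fold change by genotype was -0.02 in replicates 1 to 3 and -0.14 in replicates 4 to 6, where it was -0.01 without ΔJ replicate 5. The fold change was below 0 in both sets for 43 members and above 0 in both for 9. Among class II receptors on other chromosomes the medians were -0.01 and -0.03, the latter 0.05 without that mouse.

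Genes that share the loci with the receptors were not called either. The 15 pseudogene probe sets of chromosome 11 included 14 with a lower value in ΔJ mice, with a median log2 fold change of -0.13, and none was called or had an unadjusted p under 0.05. With the replicate number as a block 2 of the 15 had one, beside 147 of the 1213 OR probe sets. Without ΔJ replicate 5 there were 12 lower, with a median of -0.06. The loci also hold 8 genes other than ORs with a probe set of their own, among them *Mgat1*, an enzyme of N-glycan synthesis (log2 fold change -0.07), *Btnl9*, a butyrophilin-like gene (-0.07), *Trim58*, a ubiquitin ligase of red cell precursors (-0.09), and the zinc finger gene *Zfp62* (0.12). The lowest of the 8 were *Zfp616* (-0.25) and *Zfp735* (-0.17), at wild-type means of only -4.82 and -5.06. The highest was *2210407C18Rik* (0.14). The value was below 0 in 5 of the 8, with a median of -0.07. None of the 8 was called and none had an unadjusted p under 0.05 (limma over all probe sets).

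The genes that act in OR choice, feedback and trafficking were likewise read by 24 probe sets, of which 0 were called and 0 had an unadjusted p under 0.05, with a median log2 fold change of 0.00. *Lhx2* and *Ldb1*, factors of the enhancer complex, had 0.00 and -0.01, and *Ebf1*, a partner factor, had -0.08. *Kdm1a*, the histone demethylase that opens the first OR allele, had 0.09, *Adcy3*, the cyclase that signals downstream of an expressed OR, 0.04, and *Rtp1* and *Rtp2*, chaperones that carry ORs to the membrane, 0.00 and -0.01. *Hdac2* had the highest value of the list, 0.19 (95% interval -0.01 to 0.38), and *Gnal*, the G protein subunit of olfactory transduction, the lowest, -0.15 (-0.41 to 0.12).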

How the data were processed

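The authors deposited 1 log2 signal per probe set and mouse. Affymetrix Expression Console is named in the submitters' processing notes. How it summarized probes and corrected for background is not given in the sources used here. From these values, the 75th percentile of each array was subtracted and limma 3.58.1 (lmFit and eBayes, R 4.3.3) was run on the 1213 OR probe sets, with Benjamini-Hochberg adjustment over them. Genes other than ORs were fitted over all 35556 probe sets. Genotype, sex, age and replicate came from the labels. The number of arrays limits the precision, and no 2 arrays were identical. The script was tested on simulated data.

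Replicate numbers were checked for pairing. The deviations of same-numbered mice from their genotype means correlated at 0.365, 0.294, 0.419, 0.441, 0.185 and 0.385 over all probe sets, above 0.1 in every pair. Same-numbered mice always share an array set, and mice of different numbers were not compared. These correlations therefore cannot show a pairing by number. The labels do not say what a number shares, so a replicate block was fitted as an alternative and its counts are given beside the results they move.

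The members, gene lists and tests were chosen with earlier results of these data known. Members were named when they end a locus, are named by the study or known elsewhere, rank among the smallest p or largest change for genotype, sex or their interaction, vary most among wild-type mice, or share all symbols with another. *Olfr378*, *Olfr330*, *Olfr332* and *Olfr224* were named by annotation or place in a plot, and *Olfr411* after its value was seen. Probe positions and classes came from the annotation of the study, and promoter windows from RefSeq (GRCm38.p6), in which 70 of 81 members matched.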

Additional observations from a re-analysis of the deposited data

Results flagged for a closer look

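In *Olfr311*, ΔJ replicate 6 was at -2.45, above the other 5 ΔJ mice, which lay between -2.68 and -2.61. Its gap to the next mouse was 0.717 of the range of the group, above Dixon's 95% critical value for 6 samples. Among the 74 groups tested (36 named receptors and their mean, in both genotypes) this was the only one, and chance alone marks about 1 in 20 groups. ΔJ replicate 5 did not pass this criterion in the mean of the members.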

How the results depend on the processing

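Calls by genotype, sex and their interaction stayed at 0 of 81 under every alternative run, and so did those of the neighbouring genes and of the OR choice list. Members with an unadjusted p under 0.05 by genotype numbered 1 with the replicate block, 1 with the array set as a block, 1 with sex as a covariate, 2 in array set 2 alone, 7 in females alone, and 0 to 1 when each mouse was left out (1 without ΔJ replicate 2 and 1 without ΔJ replicate 6). Of all 1213 OR probe sets 147 had one with the replicate block and 137 with the array set block. The share was not counted for the sex covariate or the subsets of mice, so those counts have no background rate. The members within 1.3-fold numbered 62 in array set 1 alone, 13 in array set 2 alone, 17 in P30 mice alone and 6 in females alone. The cause was not tested. They numbered 28 to 58 when each mouse was left out, the highest without ΔJ replicate 5. The receptors lower in ΔJ mice numbered 45 to 73 when each mouse was left out, 45 without ΔJ replicate 5. Median centring moved the median log2 fold change of all probe sets from -0.03 to 0.01. Members differing between the array sets numbered 24 without the percentile shift, and 34 to 46 when each mouse was left out. The fold changes of the 36 named receptors changed sign in 65 of 960 values over all alternatives, 10 of them in array set 1 alone and 9 without ΔJ replicate 5. Signals near background and 6 mice per genotype limit what a change under 1.3-fold can show.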
